A study of Brassica rapa with 6 samples.

Results

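The table of circular RNAs (circRNAs) from Chinese cabbage (Brassica rapa) held 395 circRNAs, of 886 in all, inside a stretch of 540475 bases on chromosome A06 (15079018 to 15619492, coordinates as the deposited table gives them). They are described here as the circRNAs of the plastid-type block, because 4 annotated genes in its middle have descriptions that name proteins encoded by plastids. Every circRNA on A06 that started at or after the first of these positions and ended at or before the last was taken, of any type. No circRNA crossed either edge. Total RNA of wild type, greenhouse-grown plants was depleted of ribosomal RNA and sequenced strand-specifically from leaf (3 libraries) and from petiole, the pale stalk that continues into the blade as its midrib (3 libraries). The block was selected on the back-spliced read counts themselves, in earlier work on the same table, because leaf libraries held many circRNAs there, so differences between leaf and petiole inside it are given as values, with no test. Nothing in the labels ties a library to a plant of its own.

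Plastids, the organelles that include chloroplasts, carry a small genome of their own, which encodes subunits of the photosystems, of ATP synthase and of the plastid RNA polymerase. In green leaves, plastid messages are among the most abundant RNAs of the cell. They are made as long precursors that cover several genes and are then cut, and most lack a poly(A) tail, so they remain in a library made by ribosomal RNA depletion. Stretches of plastid DNA are also found copied into plant nuclear chromosomes. A circRNA is counted by reads that run from a downstream position back to an upstream position (back-spliced reads), and each circRNA of the table is a pair of such positions, its start and its end on the chromosome. In plants, exons of nuclear genes are a well known source of circRNAs.

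The libraries held 3216 to 4227 back-spliced reads and 111518411 to 132861243 estimated linear counts each. The tables name 10 chromosomes, A01 to A10, and no plastid sequence, so RNA of the plastid genome and RNA of a nuclear copy of it cannot be told apart in the block. As a check of the tissue labels, the FPKM values (counts normalised for transcript length and library size) of 24 annotated isoforms described as chlorophyll a-b binding proteins, the antenna of the photosystems, summed to 2843, 2724 and 2981 in the leaf libraries and to 399, 437 and 412 in the petiole libraries. Those of 4 isoforms for the small chain of Rubisco, the enzyme that fixes carbon dioxide, summed to 1445, 2020 and 1468 in leaf, against 17.4, 18.6 and 19.4 for petiole.

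The junctions filled only part of the block. The first member, circRNA46, started at 15287149, and 394 of the 395 members lay within the 108795 bases from there to 15395943. The exception was circRNA547, which started at 15368614 and ended at 15557078. It had 9 reads in leaf 3 and none in the other libraries. The nearest circRNA below the block, circRNA741 (12101604 to 12101771), lay 2977246 bases away and had 5 reads in petiole 3 alone. The nearest one above, circRNA671 (17798336 to 17798473), lay 2178843 bases away and had 6 reads in petiole 2 alone. The rest of A06 held 61 circRNAs. The usual distance between them was not counted, so these gaps are not shown to be unusual. Within the block, circRNA46, the member nearest the lower edge, started 208 kb from it and had 5 reads in leaf 1 and 0 in the other libraries.

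Of 22 annotated genes inside the block, 19 contained no junction end. The share of genes without a junction end elsewhere in the genome was not counted, so 19 of 22 may be usual. Of the 22, 10 had 0 linear counts in every library. The 19 included the genes to the left of the junctions, such as a peroxiredoxin Q gene (BraA06g022900.3C), which encodes a nuclear-encoded antioxidant enzyme of chloroplasts. They also included those to the right, such as a kinesin-like KIN-7B gene (BraA06g023100.3C), which encodes a microtubule motor. The KIN-7B gene had 0, 674 and 0 linear counts in leaf 1, 2 and 3. All 4 genes with plastid-type descriptions lay between the outermost junctions. The gene for CP43 (BraA06g023040.3C, 15335738 to 15338168, minus strand), an inner antenna protein of photosystem II, contained 52 junction ends. The atpA gene (BraA06g023070.3C, 15358924 to 15360447, plus strand), for the alpha subunit of ATP synthase, contained 11. The gene for ATP synthase CF0 subunit C (BraA06g023060.3C, 15356860 to 15357105), the ring subunit in the membrane, contained 1. The gene for the RNA polymerase beta subunit (BraA06g023050.3C, 15344993 to 15347326) contained 0, although 139 members spanned it.

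**Figure D1:**
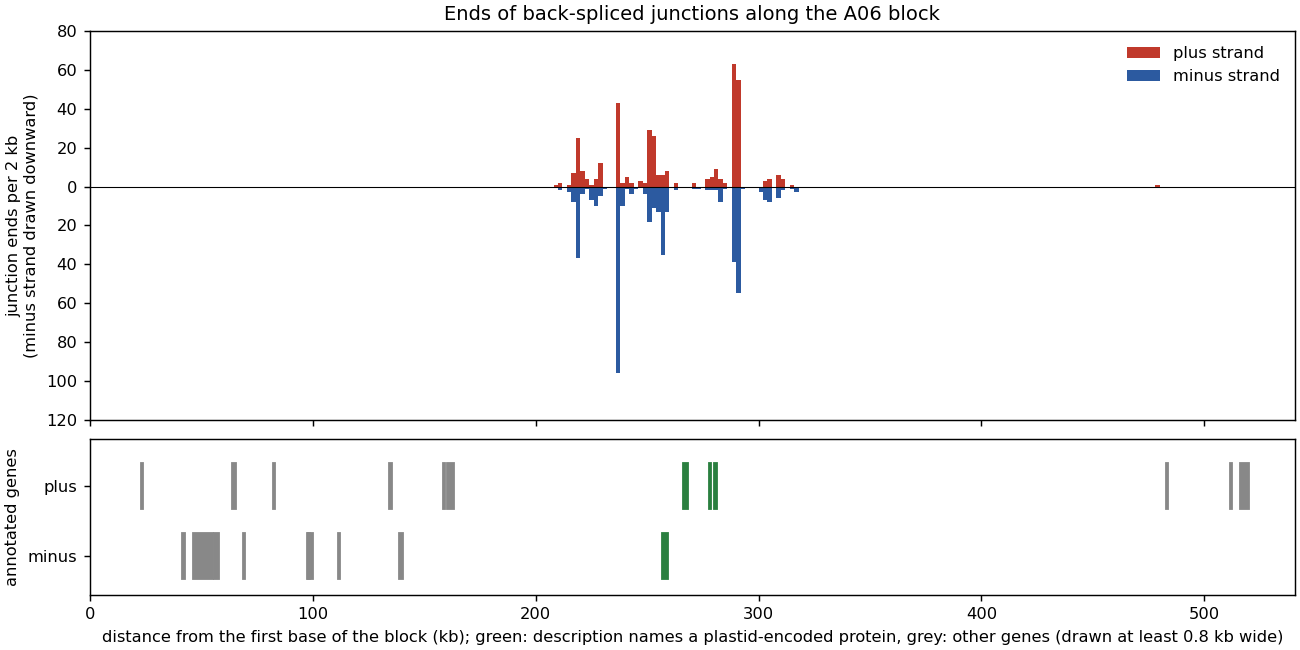
Number of junction ends (starts and ends together) per 2 kb along the block, with plus-strand ends drawn upward and minus-strand ends downward (y axis, counts), above the 22 annotated genes; the x axis is the distance from the first base of the block in kb. The ends lie in a few sharp peaks in the middle of the block, around the 4 genes with plastid-type descriptions, and the 18 other genes hold none of them. Of the 22 genes, 10 had 0 linear counts in every library.

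Members were either short or very long. The distance between start and end was under 1000 bases in 136 members (34.4%), from 1000 to under 10000 bases in 23 (5.82%) and 10000 bases or more in 236 (59.7%). The shortest, circRNA62 (15297499 to 15297638, minus strand), spanned 140 bases and had 9, 0 and 2 reads in leaf 1, 2 and 3. The longest, circRNA547, spanned 188465 bases, and the next longest spanned 86329. The median span was 19673 bases, against 285 bases for the 491 circRNAs outside the block and 5810 bases for the 180 of those that were typed intergenic. Outside the block, 10.8% of circRNAs and 29.4% of intergenic ones spanned 10000 bases or more, and every exon or intron type was shorter than that. A span is a distance on the chromosome. The table does not give the length of the RNA itself and lists a single exon for every intergenic call.

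**Figure D2:**
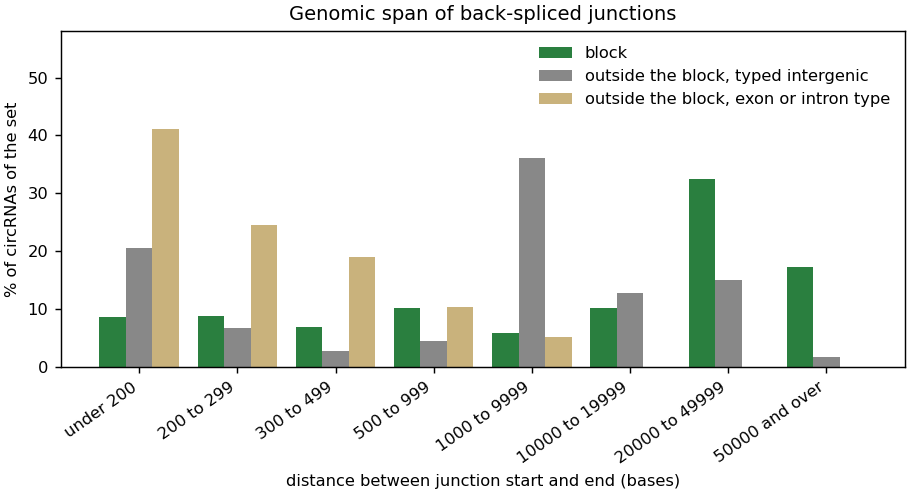
Share of circRNAs (y axis, %) in each class of genomic span (x axis, bases) for the 395 circRNAs of the block, the 180 intergenic circRNAs outside it and the 311 exon or intron circRNAs outside it. In the block, 32.4% of circRNAs spanned 20000 to under 50000 bases and 17.2% spanned 50000 or more, while 41.2% of exon or intron circRNAs outside it were under 200 bases.

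The strands were used about evenly by number of members, with 181 on plus and 214 on minus (45.8% plus), against 262 and 229 outside the block. By reads the balance was lower, with 35.4%, 46.3% and 27.6% of the block's reads on plus in leaf 1, 2 and 3. A few junctions weigh heavily on these shares. Of the 2313 block reads of leaf 3, circRNA68, circRNA496 and circRNA509, all on minus, had 298, 245 and 235. The plus junction with the most reads there, circRNA481, had 88. None of the 242 distinct start positions and none of the 220 distinct end positions was used on both strands. Exact matches between strands would be rare among so few positions, so this says little. The circRNAs outside the block were not counted in this way.

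Many junctions shared an end to the base. Of the 395 members, 332 (84.1%) had the same start or the same end as another member on the same strand, against 12.2% of circRNAs outside the block and 15.6% of the intergenic ones there. There were 26 positions, 13 starts and 13 ends, used by at least 5 members each. They took in 217 members (54.9%) and 60.4% of the leaf reads of the block.

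The most shared position was the start 15315245 on the minus strand, used by 26 members. Its partner ends ran from 15315405 to 15384615, so that the same start closed spans of 161 to 69371 bases, 16 of them of 10000 bases or more. The next was the end 15369048 on the plus strand, used by 18 members whose starts ran from 15289593 to 15368687. The third was the start 15315257 on the minus strand, 12 bases from the first, with 17 members. These positions lay in no annotated gene.

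When junction ends less than 500 bases apart were grouped, regardless of strand, the 790 ends fell into 38 clusters (a grouping chosen after the positions were seen). The cluster from 15368602 to 15370223 held 212 ends (26.8%), and the cluster from 15315101 to 15316216 held 139 (17.6%). Those from 15328178 to 15333859 and from 15294871 to 15298634 held 105 and 80, and the cluster over the CP43 gene (15334963 to 15338456) held 64. Both ends lay in the same cluster for 149 members, while 246 members joined different clusters. Of the 246, 186 (75.6%) had an end in either of the busiest pair of clusters. With this gap, 1 member joined that pair to each other, with 24 reads in leaf 1 and a span of 54979 bases, but the number was 0 with a gap of 300 bases and 7 with a gap of 1000 bases.

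**Figure D3:**
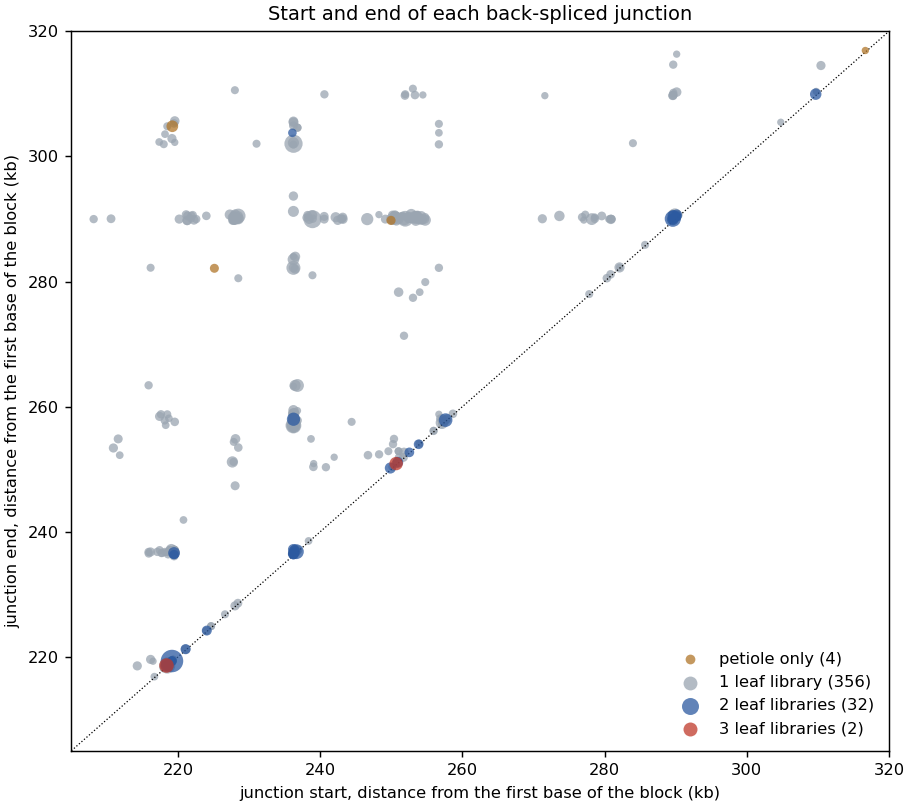
Start (x axis) against end (y axis) of each back-spliced junction, as distance from the first base of the block in kb, for the 394 members that end within 320 kb; point area grows with reads over the 6 libraries and colour gives the number of leaf libraries with reads. Long junctions line up in rows and columns, which are shared ends, and the points found in 2 or 3 leaf libraries lie mostly near the dotted diagonal, where spans are short.

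The same junction was rarely found again in another leaf library. Of 391 members with reads in leaf, 357 had them in 1 leaf library, 32 in 2 and 2 in all 3, so that 34 (8.70%) recurred. Outside the block, 44 of 253 circRNAs found in leaf recurred (17.4%), and 31 of 102 intergenic ones did (30.4%). Leaf 1 and leaf 2 shared 14 members (10.1% of those of leaf 1 and 9.27% of those of leaf 2), leaf 1 and leaf 3 shared 14 (10.1% and 10.2%), and leaf 2 and leaf 3 shared 10 (6.62% and 7.30%). Counting junctions with both ends within 5 bases as the same changed little, with 35 of 382 recurring (9.16%).

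Recurrence went with span. Of members under 1000 bases, 30 of 135 found in leaf recurred (22.2%), of those of 1000 to under 10000 bases 0 of 23, and of those of 10000 bases or more 4 of 233 (1.72%). The median number of leaf reads was 6 among the short members and 6 among the long ones. Intergenic circRNAs outside the block recurred at 22.2% (6 of 27) when short and at 30.0% (9 of 30) when of 10000 bases or more, also with a median of 6 leaf reads among the long ones. Circles that share ends and libraries are not independent, so these shares were not tested.

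Positions recurred more often than their pairings. Of 238 distinct starts in leaf, 59 (24.8%) were used in at least 2 leaf libraries, and of 217 distinct ends, 64 (29.5%) were. Outside the block the shares were 17.3% of starts and 19.8% of ends. Whole circRNAs recurred there at 17.4%, and the intergenic ones at 30.4%. The starts and ends of the intergenic ones were not counted apart. A position recurs whenever a junction that uses it does. In the block 84.1% of members shared an end, against 12.2% outside, so its positions had more chances to recur. Of the 26 positions with at least 5 members, 24 had reads in all 3 leaf libraries, although a sum over several junctions has more chances to hold a read than a single junction. The start 15315245 held 265, 99 and 209 reads in leaf 1, 2 and 3, spread over 13, 8 and 8 of its 26 members, and 3 of the 26 recurred. The end 15369048 held 225, 77 and 124 reads, and 2 of its 18 members recurred. The start 15315257 held 101, 57 and 328 reads, and 2 of its 17 members recurred. None of these positions had a read in petiole.

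**Figure D4:**
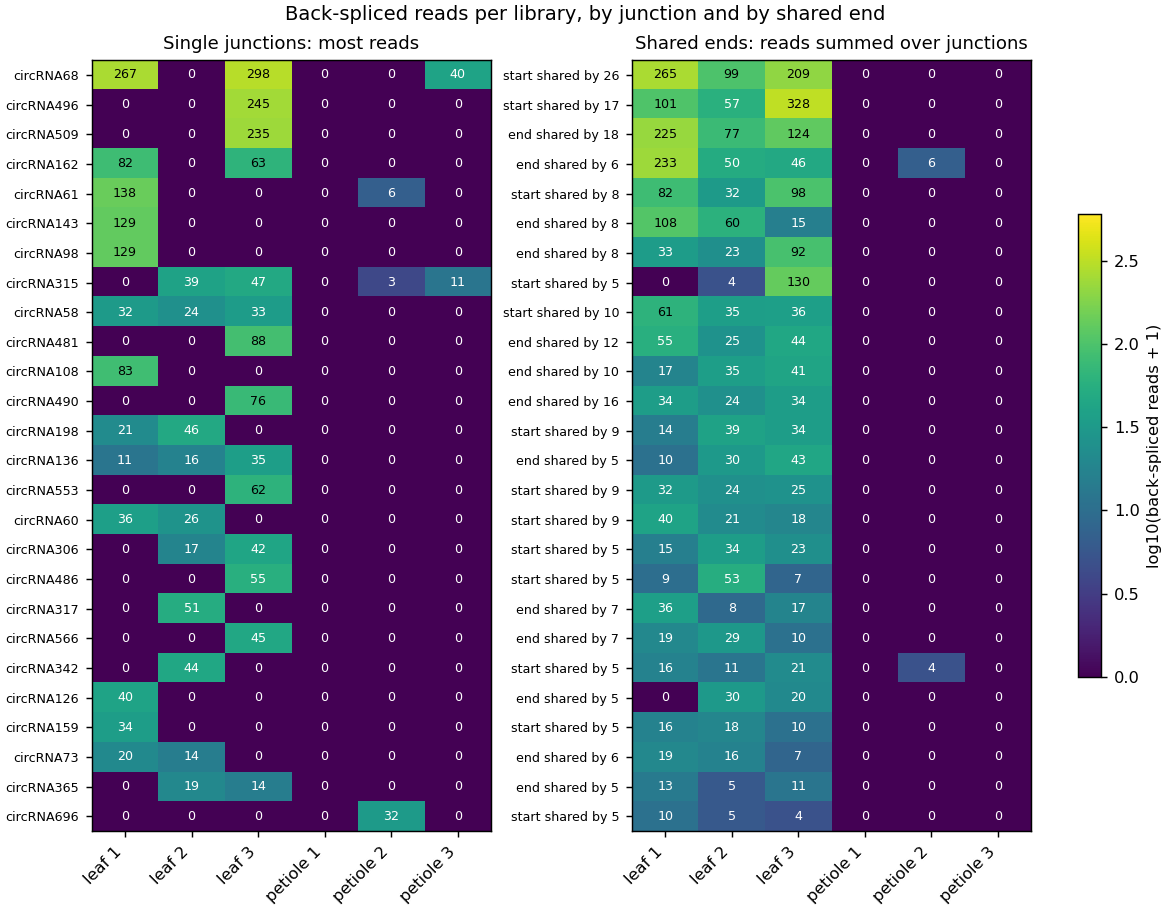
Back-spliced reads in each library for the 26 members with the most reads (left) and for the 26 shared positions with at least 5 members, summed over the junctions that use them (right); colour is log10(reads + 1) and the numbers are reads. Many single junctions with at least 20 reads in a leaf library stand at 0 in the other leaf libraries, while 24 of the 26 shared positions have reads in all 3.

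The missing reads were not only those of weak junctions. Of 44 members with at least 20 reads in a leaf library, 34 (77.3%) stood at 0 in both other leaf libraries. Outside the block this held for 8 of 20 (40.0%). Of 6 members with at least 100 reads in a leaf library, 5 stood at 0 in both other leaf libraries. Outside the block this held for 2 of 6 circRNAs, and for 2 of the 4 intergenic ones among them. By counting error alone a 0 allows up to 3 reads, or 0.0710% to 0.0933% of a library's back-spliced reads.

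The 10 members with the most reads held 33.4% of the leaf reads of the block. The most abundant was circRNA68 (15298162 to 15298355, minus strand), a junction of 194 bases with 267, 0 and 298 reads in leaf 1, 2 and 3, and with 40 in petiole 3 alone among the petiole libraries. Its 0 in leaf 2 stood beside 62 reads of other junctions whose ends both lay in the same cluster. In leaf 1 and leaf 3 that cluster held 523 and 370 such reads, circRNA68 included.

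The next were long. circRNA496 (15315257 to 15381040, minus strand) spanned 65784 bases and had 245 reads in leaf 3 and 0 in every other library. circRNA509 (15317925 to 15368981, minus strand) spanned 51057 bases and had 235 reads in leaf 3 and 0 elsewhere. Both therefore rest on a single library. In leaf 1 the long members with the most reads were circRNA98 (15315245 to 15335994, minus strand) and circRNA143 (15330972 to 15369048, plus strand), each with 129 reads there and 0 in the other libraries. In leaf 3, circRNA481 (15307492 to 15369510, plus strand) had 88 reads and was at 0 elsewhere.

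Among the short members of the leading 10, circRNA162 (15368608 to 15369048, plus strand) had 82, 0 and 63 reads in leaf, and circRNA61 (15297493 to 15297638, minus strand) had 138, 0 and 0. For circRNA162 the tissues overlapped at 0, since leaf 2 and every petiole library held none. For circRNA61, petiole 2 with 6 reads stood above leaf 2 and leaf 3. The members present in all leaf libraries were both short: circRNA58 (15297396 to 15297638, minus strand) with 32, 24 and 33 reads, and circRNA136 (15329696 to 15329914, plus strand) with 11, 16 and 35. Both were picked for having reads in every leaf library. They were at 0 in every petiole library, as were 383 of the 391 members found in leaf. Outside the block, 185 of 253 circRNAs found in leaf were absent from petiole. circRNA58 shared its end, 15297638, with 5 other members, among them circRNA61 and the shortest, circRNA62, and that end held 233, 50 and 46 reads in leaf.

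Petiole libraries held few members. There were 3, 5 and 5 in petiole 1, 2 and 3, or 12 different ones, of which 8 were also found in leaf. Outside the block, 68 of 306 circRNAs found in petiole were also found in leaf, as were 47 of 125 intergenic ones. The only member in more than 1 petiole library was circRNA315 (15315659 to 15315833, minus strand), with 0, 3 and 11 reads there and 0, 39 and 47 in leaf. Members in 2 or 3 petiole libraries were thus 1 of 12 (8.33%). Outside the block they were 54 of 306 (17.6%), and 40 of 125 (32.0%) among intergenic circRNAs. circRNA68 made up 40 of the 69 block reads of petiole 3. circRNA61 had 6 reads in petiole 2. Of petiole 1's 25 reads, 13 belonged to circRNA160 (15361111 to 15361264, plus strand), which had 3 reads in leaf 1 and was the member with the most reads there. The 4 members seen in petiole alone included 3 long junctions, each in a different library: circRNA622 with 9 reads in petiole 1, circRNA696 (15298212 to 15383832, plus strand) with 32 in petiole 2 and circRNA758 with 8 in petiole 3.

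The table typed 383 members intergenic and 12 as exon circRNAs, and none as intron circRNAs. Of the 12, 10 were assigned to the CP43 gene and 2 to atpA. The 10 in the CP43 gene spanned 171 to 1250 bases and together had 21, 60 and 73 reads in leaf and 0 in petiole. The gene lies on the minus strand, as did 7 of the circles, while 3 lay on the plus strand. The strongest were circRNA198 (15336649 to 15336861, minus strand), with 21, 46 and 0 reads in leaf, and circRNA566 (15336133 to 15336438, minus strand), with 0, 0 and 45. Only circRNA198 recurred. A close neighbour, circRNA570 (15336653 to 15336861), shared its end, started 4 bases further on and had 9 reads in leaf 3, the library in which circRNA198 was missing. The atpA circles, circRNA14 (15359330 to 15359547) and circRNA233 (15359858 to 15360163), both lay on the strand of the gene. circRNA14 had 3 reads in leaf 1 and 3 in petiole 1, and circRNA233 had 6 in leaf 2.

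The order of these genes by circle reads differed from that by linear level. The atpA gene had a linear level of 3074, 3193 and 2922 FPKM in leaf and 593, 609 and 593 in petiole, the highest mean of any isoform inside the block, beside 9 circle reads in leaf. The CP43 gene stood at 70.9, 139 and 76.6 FPKM in leaf and 9.47, 6.75 and 7.65 in petiole, beside 154 circle reads in leaf. The RNA polymerase gene was at 19.6, 19.5 and 19.3 FPKM in leaf and 7.14, 6.35 and 6.27 in petiole, with no junction end. The CF0 subunit C gene had 1 to 3 counts in every library. In all of these but the last, the leaf and petiole libraries did not overlap. Tissue differences were common, with 29.5% of all linear isoforms tested called at edgeR adjusted p below 0.05. How many isoforms elsewhere had no overlap was not counted, so this is not shown to be particular to these genes. Counts at these genes may depend on how reads were shared with 55 assembled transcripts inside the block, which was not tested.

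Linear counts of some isoforms inside the block also varied between leaf libraries. Of 44 isoforms inside the block with at least 10000 counts in a leaf library, 18 (40.9%) were at 0 in another leaf library, against 24 of 1313 (1.83%) elsewhere in the genome. The second highest isoform by mean FPKM, MSTRG.17038.3, was steady at 2705, 2235 and 2268 FPKM in leaf, while MSTRG.17038.4 had 602, 14.0 and 2949 and MSTRG.17036.5 had 3917, 343 and 556. The fifth, MSTRG.17038.19, had 827, 1161 and 1221. Their petiole values ran from 402 to 429, 622 to 768, 127 to 466 and 274 to 302 FPKM in that order. Neither the source of this variation nor whether it bears on the junctions was tested.

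Summed over the block, the leaf libraries stood above the petiole libraries on each measure used. Leaf libraries detected 142 ± 7.57 members and petiole libraries 4.33 ± 1.15 (SD, n = 3 each). These numbers depend on how many block reads a library held: thinned to 25 block reads each, the expected number of members was 19.1 on average in leaf libraries and 4.14 in petiole libraries. Leaf 1, 2 and 3 had 1954, 1265 and 2313 block reads, and petiole 1, 2 and 3 had 25, 47 and 69. The leaf mean was 39.2 times the petiole mean. On the authors' scaled signal (SRPBM, back-spliced reads scaled to library size), which gives a read more weight in petiole (10.4 to 12.4 units) than in leaf (6.60 to 8.36 units), the ratio was 24.1. Long members made up 49.6%, 57.2% and 58.7% of the block reads in leaf 1, 2 and 3. In petiole 1, 2 and 3 they made up 36.0%, 68.1% and 11.6%, from 1 long member in each library. In a tissue sample, fewer plastid-rich cells and less plastid RNA per cell cannot be told apart.

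The difference in circles was larger than that in linear RNA of the same block. Because the block was chosen on its circle counts in leaf, the circle ratio may be raised by that choice. The comparison is therefore a description only. Linear isoforms inside the block took 24.3%, 24.3% and 17.6% of all linear counts in the leaf libraries. Their share of the petiole libraries was 3.99%, 4.01% and 3.89%, so the ratio of leaf to petiole means was 5.57. In back-spliced reads per 1000000 linear counts of the block, leaf 1, 2 and 3 had 69.9, 43.0 and 118, while petiole 1, 2 and 3 had 4.72, 9.03 and 14.7. Here the ratio of means was 8.11. The lowest leaf library was 2.92 times the highest petiole library. Outside the block the order was the other way, with 20.5 to 21.3 back-spliced reads per 1000000 linear counts in leaf and 27.7 to 28.7 in petiole. Within leaf, the library with the lowest linear share of the block, leaf 3, had the most back-spliced reads from it.

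**Figure D5:**
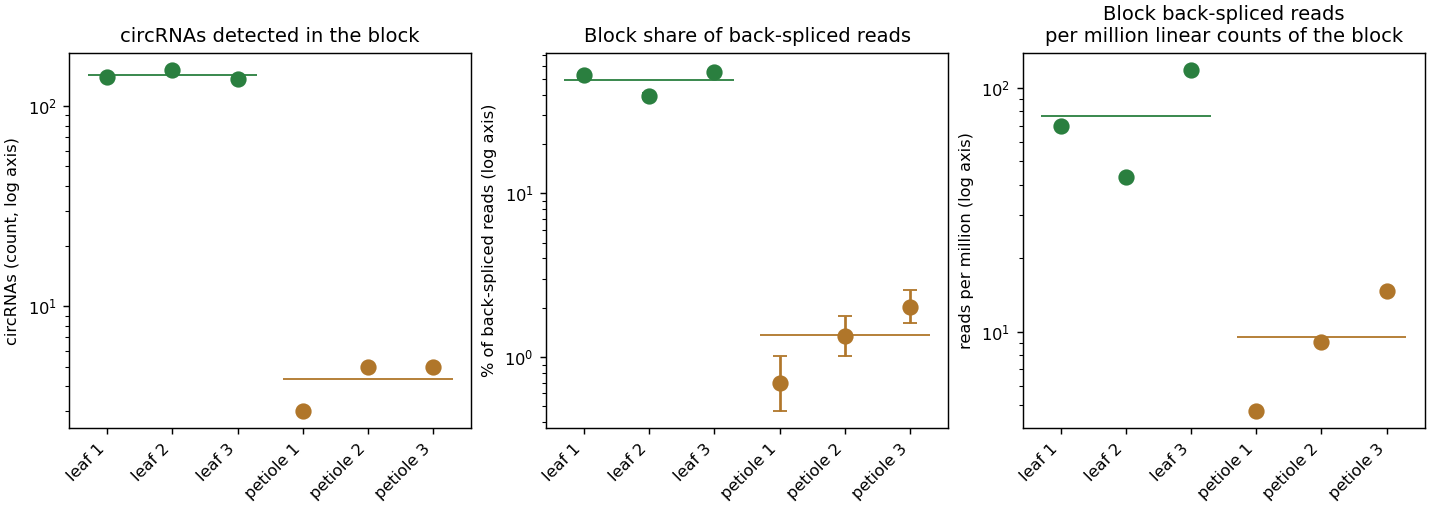
Members detected (left), block share of back-spliced reads with 95% Wilson intervals (middle, %) and back-spliced reads per 1000000 linear counts of the block (right), per library on log axes; horizontal lines are tissue means. The leaf libraries lie above the petiole libraries in every panel, from 137 to 151 against 3 to 5 members (19.1 against 4.14 on average when each library is thinned to 25 block reads, not drawn) and from 43.0 to 118 against 4.72 to 14.7 reads per 1000000.

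Linear isoforms outside the block with plastid gene names in their descriptions were tested, since they played no part in choosing the block. The name patterns matched 22, of which 18 had at least 10 counts on average. For 17 of these 18 the description is that of a nuclear relative or partner of a plastid gene (ycf proteins, methyltransferases that act on the Rubisco large subunit, and the iron-sulfur subunit of the cytochrome b6-f complex). With edgeR's quasi-likelihood test and Benjamini-Hochberg adjustment over 52982 isoforms, 13 fell in petiole and 1 rose, with a median log2 fold change of -1.57. Of all isoforms tested, 29.5% were called, 14.1% lower and 15.4% higher, and their median was 0.03.

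A pair of genes for the iron-sulfur subunit, which passes electrons between the photosystems, fell from 133 ± 5.97 to 14.4 ± 1.65 CPM (counts scaled to a common library size; BraA09g001100.3C, log2 fold change -3.20, SE 0.107, edgeR adjusted p = 3.49e-05) and from 72.1 ± 1.90 to 7.07 ± 0.867 CPM (BraA03g028630.3C, -3.35, SE 0.113, edgeR adjusted p = 3.64e-05; SD, n = 3). A Rubisco large subunit methyltransferase isoform (BraA09g045970.3C) had 85, 97 and 101 counts in leaf and 0 in every petiole library (edgeR adjusted p = 0.0044). The only plastid-encoded name among the 18 was a partial Rubisco large subunit gene on A01 (BraA01g028300.3C), which was also the 1 rise. It had 1 count in each leaf library and 6559, 7323 and 1 in petiole (edgeR adjusted p = 0.0412), so petiole 3 overlapped with leaf. The call was lost without any single leaf library and without petiole 1 or petiole 2.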

How the data were processed

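CircRNAs and linear isoforms of 3 leaf and 3 petiole libraries were used, with the tissue taken from each title. The circRNA table deposited by the authors gives back-spliced read counts per library and a scaled signal (SRPBM), per the file headers. In the isoform table deposited by the authors, per the file headers, each transcript has an estimated count and an FPKM value. Estimated counts are whole numbers, so none was rounded, and FPKM values of 0.0001, which stand where the count is 0, were set to 0. The submitters' processing notes list TopHat, HISAT2 and StringTie. Which program called the circRNAs, and on which build, is not given in the sources used here. Since a caller decides which junctions are listed, and every listed count in the block is at least 2, weaker junctions may be missing.

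Shared ends were matched to the base on 1 strand. Counts are per library, with 95% Wilson intervals for shares and 3 reads as the floor of a 0, and both cover counting error only. Isoforms averaging 10 counts or more were tested with edgeR 4.0.16 (TMM, quasi-likelihood F test, petiole minus leaf) in R 4.3.3, called at adjusted p below 0.05. The method was also run on simulated counts drawn independently with the same dispersion for every isoform. That run does not cover isoforms with large counts in some replicates and 0 in others. P-values measure the spread between these libraries, which may be technical. Alternatives used DESeq2 1.42.0 and limma 3.58.1 on log2(FPKM + 1). Summaries used Python 3.11.15 and SciPy 1.17.1.

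Members, gene name patterns and tests were chosen with earlier results of these data known. Named were the 10 members with the most reads, those in all leaf or in at least 2 petiole libraries, the 3 largest groups sharing an end, the extremes of span, the exon types, the nearest to each edge, the 4 plastid-type genes, the 5 isoforms with the highest mean FPKM, and up to 3 called rises and falls outside the block. Others were named after their values were seen. The exon circles in the CP43 gene with few reads are given as a group.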

Additional observations from a re-analysis of the deposited data

How the results depend on the processing

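With each library thinned to 25 block reads, the smallest number of any library, the expected number of members detected was 19.1 in leaf, against 142 as counted, and 4.14 in petiole. Weighted by reads, 34.6% of the block lay on the plus strand, against 45.8% by members. Between only 2 leaf libraries, 10 to 14 members recurred, against 34 over 3, because fewer libraries can hold a repeat. The number of members that join the busiest pair of end clusters was 0 with a gap of 300 bases and 7 with 1000 bases, since the clusters themselves change. The alternatives for recurrence and for the cluster gap were chosen after seeing the data.

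Of the plastid-named isoforms outside the block, 10 to 14 were called lower under every alternative run, and 0 were called higher with limma on log2(FPKM + 1), with the replicate block and without most single libraries (0 to 1). With the replicate block, the Rubisco methyltransferase isoform BraA09g045970.3C and the partial Rubisco large subunit gene BraA01g028300.3C were not called. Over all isoforms, 15649 were called with edgeR, 24114 with DESeq2 and 9045 with the replicate block. Limma moved the median isoform to 0.35 and made 78.4% of calls rises, against 52.3% with edgeR, and the median of the plastid-named isoforms was then -0.74. Whether replicate numbers pair the libraries could not be decided. Deviations from the tissue means of leaf and petiole libraries with the same number correlated at -0.0077, -0.0053 and 0.0171. Not every library correlated best with its own number. Values this close to 0 cannot exclude that libraries with the same number came from the same plant.

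Petiole libraries, with 25 to 69 block reads, held 3 to 5 members each, and a count of 0 in any library allows up to 3 reads.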
